A study of Mus musculus with 16 samples.

Results

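Exercise was added to an antibody against PD-L1 in mice that carried MC38 tumours, and the tumours of mice given both were set against tumours of mice given the antibody alone. The comparison uses 8 of the 16 libraries of the series, chosen by their titles. Of these, 4 are from tumours with exercise and anti-PD-L1, called the combination here, and 4 are from tumours with anti-PD-L1 and no exercise. The 4 libraries with exercise alone and the 4 control libraries entered the fit to share its estimate of the spread. They also gave the exercise minus control difference used near the end of these results. They are given beside a result where they show its level. MC38 is a colon carcinoma line of the mouse, and all 16 tumours grew from it under the skin. RNA in each library therefore comes from the graft together with the host cells inside it. The sources used here do not give the strain, age and sex of the mice, the antibody clone, its dose or the exercise schedule. The labels do not state that each library of a group is from its own mouse, and p-values here cover only how far these samples spread, which could be technical.

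PD-L1, encoded by Cd274, is a surface protein of tumour and myeloid cells that binds PD-1 on T cells and restrains them. Blocking it can let T cells release interferon gamma, which switches on MHC class I genes, the machinery that loads peptides on them, and a wide set of GTPases and chemokines. Growing cells also depend on the mevalonate pathway, which builds sterols and isoprenoids from acetyl-CoA. The transcription factor SREBP-2 drives its genes when membranes are short of sterols, and INSIG proteins hold that factor back when sterols are plentiful.

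The 8 libraries were close to each other. Correlations of log2(FPKM + 1) across genes ranged from 0.972 to 0.980 among combination libraries, from 0.974 to 0.985 among anti-PD-L1 libraries and from 0.963 to 0.990 between the groups. The highest of these was between combination 1 and anti-PD-L1 1, which were thus more alike than any pair within a group. Over all 16 libraries FPKM summed to between 478672 and 529732. Those values carry no read counts, so the depth behind them is unknown. Most markers of colon epithelium were near 0 or low. Epcam, an epithelial adhesion protein, averaged 0.0825 FPKM in combination and 0.115 FPKM in anti-PD-L1 tumours, and Krt20, a keratin of the gut lining, averaged 0.128 FPKM in combination and 0.0875 FPKM in anti-PD-L1 tumours. Lgals4, a lectin of the gut epithelium, was the highest of them, at 10.3 ± 1.97 FPKM in combination and 11.6 ± 2.41 FPKM in anti-PD-L1 tumours. Krt14, a keratin of the skin, averaged 48.8 ± 27.3 FPKM in combination and 38.4 ± 12.5 FPKM in anti-PD-L1 tumours (SD, n = 4 each).

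No gene passed the test. Of 11868 genes tested with limma on log2(FPKM + 1), 0 (0%) had a Benjamini-Hochberg adjusted p under 0.05 between combination and anti-PD-L1 tumours, and the smallest adjusted p was 0.968. Unadjusted, limma gave 468 genes a p under 0.05, which is 3.94% of those tested. Of these, 267 had a log2 fold change above 0 and 201 one below 0, or 2.25% and 1.69% of the genes tested. No overlap of the 2 groups was seen for 266 genes (2.24%), with the combination higher for 166 (1.4%) and lower for 100 (0.843%). Fold changes are given as combination over anti-PD-L1 with their standard error, on the log2(FPKM + 1) scale, which understates the difference of genes with low values.

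The data limit how large most differences could be. The median log2 fold change was 0.02, with 55.2% of genes above 0 and 44.8% below, and 97.5% of the fold changes lay within 0.5 of 0. The median standard error was 0.13, and the 95% interval of the log2 fold change lay within 1 of 0 for 11238 genes (94.7%). That share was 89.8% with 0.1 added to FPKM in place of 1, and 88.8% with 0.01. A log2 fold change of 1 or more was seen for 37 genes, 10 above 0 and 27 below. The values that follow are therefore a description of these 8 libraries, and no difference in them passed the adjusted test. Standard errors and p-values use the spread within all 4 groups of the fit. They can thus be wide for a gene that varies in the exercise or control libraries.

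**Figure D1:**
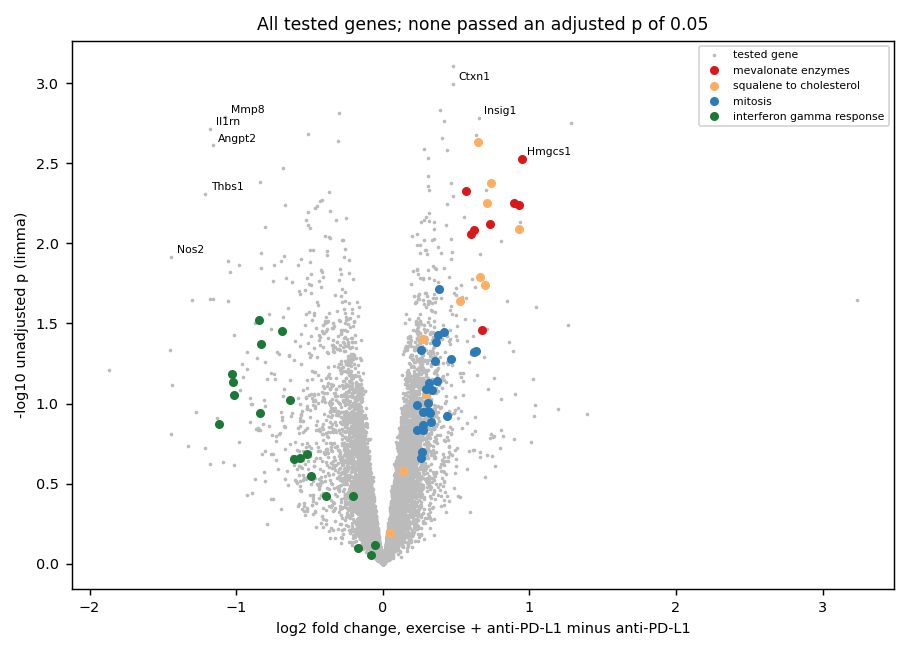
Log2 fold change of combination over anti-PD-L1 tumours (horizontal axis) against -log10 of the unadjusted p in limma (vertical axis), with 1 point for each of 11868 tested genes. Coloured points mark the tested genes of the mevalonate, later sterol, mitosis and interferon gamma lists, and no point passed an adjusted p of 0.05 in limma.

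Among the 10 genes with the smallest p on the higher side were an inhibitor of the sterol response and an enzyme of sterol synthesis. Insig1, which retains the SREBP complex in the endoplasmic reticulum and is itself an SREBP target (chromosome 5, 28071412 to 28078662, RefSeq annotation of GRCm38.p6, as for all coordinates), had 43.9, 47.2, 39.02 and 59.1 FPKM in combination tumours, against 38.96, 20.9, 29.4 and 30.8 FPKM in anti-PD-L1 tumours. Every combination library lay above every anti-PD-L1 library, although combination 3 was barely above anti-PD-L1 1. The log2 fold change was 0.66 ± 0.17 (SE), with an unadjusted p of 0.00164 in limma. Fdft1, the squalene synthase that commits farnesyl diphosphate to sterols, had a log2 fold change of 0.65 ± 0.18. Pcyt2, an enzyme of phosphatidylethanolamine synthesis, had 31.5, 32.9, 31.98 and 41.2 FPKM in combination and 28.02, 21.3, 24.7 and 14.8 FPKM in anti-PD-L1 tumours, again with no overlap.

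Ctxn1, a small membrane protein known from the brain (chromosome 8, 4257646 to 4259274), had 31.8, 25.3, 35.6 and 24.8 FPKM in combination tumours, against 24.9, 18.6, 19.96 and 19.1 FPKM in anti-PD-L1 tumours. The groups overlapped, because anti-PD-L1 1 lay just above combination 4, and the log2 fold change was 0.48 ± 0.12. Its means in the other groups were 51.1 ± 4.98 FPKM in exercise and 41.6 ± 2.84 FPKM in control tumours. The histone genes H2afx, whose protein marks broken DNA, and Hist2h3b, a histone of replicating chromatin, had log2 fold changes of 0.40 ± 0.11 and 1.28 ± 0.34 with no overlap of the groups. Hist2h3b has nearly identical copies to which reads could be assigned, so its value is uncertain. The remaining genes were Gm40595, Zfp771, a zinc finger protein, Cluap1, a part of the transport system of cilia, and Pnkd, with log2 fold changes of 0.48, 0.39, 0.42 and 0.28. Each of these 10 genes had an adjusted p of 0.968 in limma.

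The mevalonate pathway lay higher in combination than in anti-PD-L1 tumours at every step measured, without passing the adjusted test. All 8 of its enzymes were tested. The log2 fold changes had a median of 0.71, beside 0.02 over all genes tested. All 8 had an unadjusted p under 0.05 in limma on the higher side, against 2.25% of all tested genes, and 5 of 8 had groups that did not overlap, against 1.4%. With 1 library left out the median lay between 0.62 and 0.83.

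The promoters of sterol enzymes are known to carry sterol regulatory elements beside CCAAT boxes, which bind the factor NF-Y that works with SREBP-2. The promoters of 3 sterol enzymes are printed to show these letters, and that of Cdc20, a mitotic gene described further on, as one from another group whose promoters often hold CCAAT. They run from 250 bases before to 50 after the gene start in RefSeq on GRCm38.p6, 5′ to 3′ on the strand of the gene. Capitals mark CCAAT on either strand, written CCAAT or ATTGG, and for Hmgcs1 also the one match to TCACNCCAC, a form of the sterol regulatory element. Hmgcs1 is at chr13:119690101-119690400 on the plus strand, Mvk at chr5:114444019-114444318 on the plus strand, Cyp51 at chr5:4104648-4104947 on the minus strand and Cdc20 at chr4:118437294-118437593 on the minus strand.
Hmgcs1: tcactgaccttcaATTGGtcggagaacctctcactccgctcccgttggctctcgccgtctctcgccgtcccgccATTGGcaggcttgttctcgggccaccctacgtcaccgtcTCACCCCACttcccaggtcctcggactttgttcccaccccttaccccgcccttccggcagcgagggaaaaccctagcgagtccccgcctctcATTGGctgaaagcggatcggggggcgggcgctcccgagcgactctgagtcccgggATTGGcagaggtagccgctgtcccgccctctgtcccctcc
Mvk: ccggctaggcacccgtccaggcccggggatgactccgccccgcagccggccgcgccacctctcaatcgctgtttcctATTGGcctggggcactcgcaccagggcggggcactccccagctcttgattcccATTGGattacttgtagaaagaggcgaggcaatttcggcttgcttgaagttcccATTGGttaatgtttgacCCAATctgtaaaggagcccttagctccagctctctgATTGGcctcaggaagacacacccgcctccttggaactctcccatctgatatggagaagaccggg
Cyp51: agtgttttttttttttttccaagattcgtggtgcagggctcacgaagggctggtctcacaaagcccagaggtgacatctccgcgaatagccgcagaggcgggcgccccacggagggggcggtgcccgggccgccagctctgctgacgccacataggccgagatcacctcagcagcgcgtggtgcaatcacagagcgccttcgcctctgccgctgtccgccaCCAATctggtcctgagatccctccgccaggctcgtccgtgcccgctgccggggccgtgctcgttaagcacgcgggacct
Cdc20: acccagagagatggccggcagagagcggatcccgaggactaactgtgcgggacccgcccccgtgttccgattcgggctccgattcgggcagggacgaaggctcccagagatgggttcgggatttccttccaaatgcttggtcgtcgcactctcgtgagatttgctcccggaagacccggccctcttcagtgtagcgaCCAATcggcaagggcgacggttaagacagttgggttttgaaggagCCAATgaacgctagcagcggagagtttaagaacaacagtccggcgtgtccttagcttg

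Both motifs were searched on both strands, and they did not overlap in Hmgcs1, where the TCACNCCAC match lies at position -137 from the start. A gene with several starts has several promoters in the table. At least 1 promoter held CCAAT for 5 of 6 mevalonate genes and 9 of 9 later sterol genes, against 41.1% of 27025 genes and 43.3% of 9337 tested genes with a promoter in the table. The same held for 18 of 20 mitosis genes, 4 of 8 genes of sterol control and 8 of 16 hypoxia genes. Counted by promoter, CCAAT stood in 5 of 7 mevalonate, 9 of 11 later sterol, 19 of 21 mitosis, 4 of 13 sterol control and 9 of 22 hypoxia promoters, against 37.4% of 32851 promoters. TCACNCCAC stood in 1 of 7 mevalonate promoters and 0 of 11 later ones, against 1.24% of all promoters. Only this form of the sterol regulatory element was searched, so a promoter without a match may still hold another form. A match describes the letters in this window and is not a site shown to be bound. The table has no entry for Fdps, Fdft1 and Sqle, among others.

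Hmgcs1, the HMG-CoA synthase whose promoter is printed above, had 43.03, 57.1, 58.6 and 74.6 FPKM in combination tumours, against 41.6, 24.5, 30.7 and 23.1 FPKM in anti-PD-L1 tumours. All combination libraries lay above all anti-PD-L1 libraries, with combination 1 and anti-PD-L1 1 the closest to each other. The log2 fold change was 0.95 ± 0.27, with an unadjusted p of 0.00295 in limma and a 95% interval from 0.38 to 1.52.

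The later enzymes of the pathway were also higher on average in the combination libraries. Idi1, the isomerase of the isoprenoid building blocks, had 3.99, 4.41, 4.04 and 5.89 FPKM in combination tumours and 3.46, 1.88, 1.87 and 1.12 FPKM in anti-PD-L1 tumours, with no overlap and a log2 fold change of 0.90 ± 0.28. Fdps, the farnesyl diphosphate synthase, had 80.9, 123, 107 and 125 FPKM in combination and 73.2, 45.3, 80.4 and 36.3 FPKM in anti-PD-L1 tumours. Its groups were barely apart, since combination 1 lay just above anti-PD-L1 3, and its log2 fold change was 0.93 ± 0.29. Mvd, the decarboxylase, did not overlap either, with a log2 fold change of 0.73 ± 0.24. The kinases Mvk and Pmvk and the thiolase Acat2 overlapped between the groups and had log2 fold changes of 0.62 ± 0.20, 0.60 ± 0.20 and 0.68 ± 0.29.

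**Figure D2:**
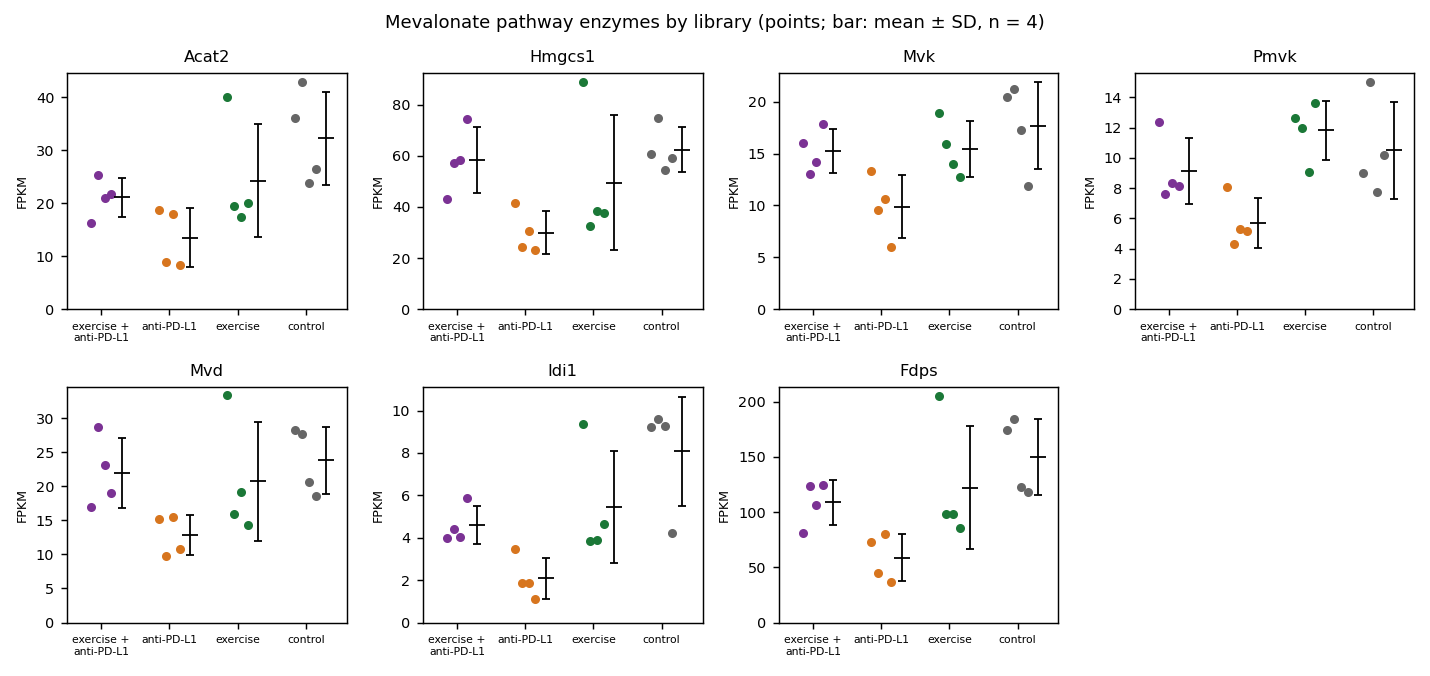
FPKM of 7 mevalonate pathway genes (vertical axes) in each library of the combination, anti-PD-L1, exercise and control groups, with 1 point per library and a bar at the mean ± SD of the group (n = 4). Anti-PD-L1 1 is the library of its group nearest to the combination libraries for several of these genes, as for Hmgcs1, where it had 41.6 FPKM.

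The mean of log2(FPKM + 1) over the 8 genes was 4.29, 4.52, 4.46 and 4.59 in the combination libraries, against 4.15, 3.48, 3.90 and 3.35 in the anti-PD-L1 libraries. The combination libraries lay close together and all above the anti-PD-L1 libraries, which spread widely. As a group mean it was 4.47 ± 0.13 in combination, 3.72 ± 0.37 in anti-PD-L1, 4.49 ± 0.42 in exercise and 4.78 ± 0.28 in control tumours (SD, n = 4 each). The combination mean thus lay within 1 SD of the exercise mean, and the anti-PD-L1 mean was the lowest of the 4.

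The steps from squalene to cholesterol lay higher as well. All 12 enzymes were tested and had log2 fold changes above 0, with a median of 0.59, and between 0.51 and 0.70 with 1 library left out. An unadjusted p under 0.05 in limma was reached by 8 of 12, against 2.25% of all tested genes on the higher side, and the groups did not overlap for 1, Sqle, against 1.4%. Sqle, the squalene epoxidase, had 32.5, 42.9, 42.2 and 54.7 FPKM in combination tumours, against 30.8, 20.9, 31.1 and 20.8 FPKM in anti-PD-L1 tumours, and a log2 fold change of 0.71 ± 0.22. Cyp51, the lanosterol demethylase, had 23.8, 22.7, 34.1 and 39.2 FPKM in combination and 23.5, 15.4, 18.8 and 12.4 FPKM in anti-PD-L1 tumours. Combination 2 lay below anti-PD-L1 1, so the groups overlapped, and the log2 fold change was 0.74 ± 0.22.

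Nsdhl, Msmo1 and Lss, the lanosterol synthase, had log2 fold changes of 0.70 ± 0.26, 0.66 ± 0.25 and 0.53 ± 0.21. The smallest values were those of Dhcr7, Sc5d, Tm7sf2, Hsd17b7 and Ebp, at 0.27, 0.30, 0.27, 0.14 and 0.05. For Ebp, the sterol isomerase, the value was within its standard error of 0 and turned to -0.00206 without combination 4.

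Genes that control sterol supply were split. Of 12 listed, 10 were tested, 6 with a log2 fold change above 0 and 4 below, with a median of 0.10, which was 0.02 without anti-PD-L1 4. Srebf2, which encodes SREBP-2, had a log2 fold change of 0.34 ± 0.12. On the other side was Rnf145, a ubiquitin ligase that acts in the sterol response, and the gene with the smallest p of all those below 0. It had 20.9, 18.6, 17.7 and 17.4 FPKM in combination and 23.5, 24.8, 23.3 and 21.1 FPKM in anti-PD-L1 tumours, with no overlap and a log2 fold change of -0.30 ± 0.08. Insig1, Srebf2 and Stard4, a sterol carrier named here after its values were seen, were among the 4 above 0 with an unadjusted p under 0.05 in limma, against 2.25% of all tested genes on that side. Rnf145 was the 1 gene of the list below 0 with such a p, against 1.69% of all tested genes on that side.

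Fatty acid synthesis was less uniform. Of its 13 genes, 8 had a log2 fold change above 0, and the median was 0.23, but 0.15 without anti-PD-L1 2 and 0.07 without anti-PD-L1 4. The desaturases Fads1 and Fads2 and the elongase Elovl6 were the 3 with an unadjusted p under 0.05 in limma, against 2.25% of all tested genes on the higher side. Their log2 fold changes were 0.31 ± 0.12, 0.51 ± 0.22 and 0.62 ± 0.26, the last of them 0.40 without anti-PD-L1 4. The desaturase Scd2 had 0.24 ± 0.12.

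Mitotic genes lay higher in combination tumours, by a smaller amount than sterol genes. All 25 genes of the spindle, the kinetochore and the mitotic kinases had a log2 fold change above 0, from 0.23 to 0.63 with a median of 0.32, and between 0.28 and 0.40 with 1 library left out. Of these, 7 had an unadjusted p under 0.05 in limma, against 2.25% of all tested genes on the higher side, and 11 had groups that did not overlap, against 1.4%. Mki67, the proliferation marker (chromosome 7, 135689784 to 135716450), had 42.03, 44.6, 49.3 and 53.6 FPKM in combination tumours, against 32.95, 33.3, 25.98 and 28.5 FPKM in anti-PD-L1 tumours. The groups lay clearly apart, and the log2 fold change was 0.63 ± 0.29 with an unadjusted p of 0.0471 in limma. That standard error also takes in the exercise libraries, which ran from 17.35 to 63.85 FPKM. Cdc20, an activator of the complex that starts anaphase, had 63.4, 72.4, 69.3 and 70.4 FPKM in combination and 53.5, 48.1, 58.3 and 50.6 FPKM in anti-PD-L1 tumours, also apart.

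Plk1, a mitotic kinase, had a log2 fold change of 0.42 ± 0.18 with no overlap of the groups. Ccna2 and Birc5, a cyclin and a survival protein of the mitotic spindle, had 0.37 ± 0.16 and 0.36 ± 0.16, and Top2a, the topoisomerase of dividing cells, had 0.33 ± 0.21, each with overlap. The mean of log2(FPKM + 1) over the 25 genes was 4.86, 5.02, 5.17 and 5.15 in combination libraries, against 4.77, 4.71, 4.68 and 4.65 in anti-PD-L1 libraries. The lowest combination library, combination 1, was above the highest anti-PD-L1 library, anti-PD-L1 1. The group means were 5.05 ± 0.14 in combination, 4.70 ± 0.05 in anti-PD-L1, 4.88 ± 0.45 in exercise and 5.26 ± 0.22 in control tumours.

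The genes of DNA replication and nucleotide synthesis were above 0 for 23 of 23, with a median log2 fold change of 0.25, which was 0.12 without anti-PD-L1 4. Tk1, a thymidine kinase, had 50.7, 59.7, 52.4 and 63.7 FPKM in combination tumours, against 49.5, 37.8, 49.3 and 26.7 FPKM in anti-PD-L1 tumours. It was the only one of the 23 whose groups did not overlap, against 1.4% of all tested genes on the higher side. Combination 1 lay just above anti-PD-L1 1, and the log2 fold change was 0.50 ± 0.21. Tyms, the thymidylate synthase, and E2f1, a factor of the entry into S phase, had log2 fold changes of 0.41 ± 0.18 and 0.29 ± 0.13. Gins1, a part of the replicative helicase, had 0.49 ± 0.27, and its value was lowest in anti-PD-L1 4, which had 5.14 FPKM. Without that library the log2 fold changes were 0.31 for Tk1, 0.25 for Tyms, 0.16 for E2f1 and 0.27 for Gins1.

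**Figure D3:**
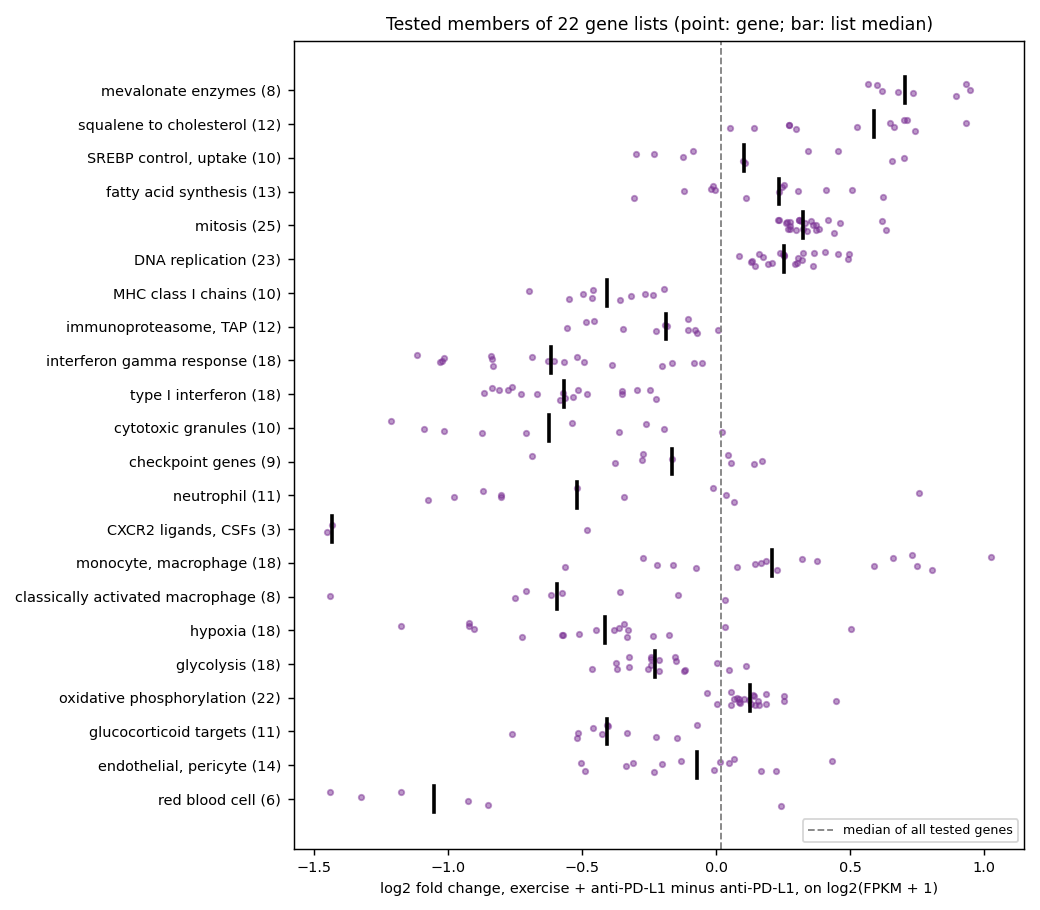
Log2 fold changes of combination over anti-PD-L1 tumours (horizontal axis) for the tested members of the 22 gene lists described (vertical axis), with 1 point per gene, a bar at the median of each list and a dashed line at the median of all genes tested. The 8 mevalonate genes, 12 later sterol genes and 25 mitotic genes lie to the right of 0, and the 18 interferon gamma response genes to the left.

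Genes of the interferon gamma response lay lower in combination than in anti-PD-L1 tumours, with wide spread in both groups. All 18 tested members of 20 had a log2 fold change below 0, from -1.12 to -0.05 with a median of -0.62. None had groups that did not overlap, and 3 had an unadjusted p under 0.05 in limma, against 1.69% of all tested genes on the lower side. The median was -0.32 without anti-PD-L1 1. Irgm1, a GTPase of defence inside cells, had 55.1, 35.7, 22.03 and 41.6 FPKM in combination tumours, against 102, 61.4, 40.8 and 76.3 FPKM in anti-PD-L1 tumours. Anti-PD-L1 1 was the highest library and combination 3 the lowest, with overlap between, and the log2 fold change was -0.84 ± 0.35. Gbp9 and Irgm2, from the same class of interferon-induced GTPases, had log2 fold changes of -0.83 ± 0.37 and -1.03 ± 0.52. Genes of these families have similar copies that can share reads.

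Gbp2, another GTPase, had a log2 fold change of -0.49 ± 0.44, which was -0.20 without anti-PD-L1 1 and -0.21 without combination 3. The chemokines that draw T cells were less clear. Cxcl10 had 99.8, 38.3, 37.4 and 67.4 FPKM in combination tumours and 218, 49.8, 24.2 and 57.8 FPKM in anti-PD-L1 tumours. One library, anti-PD-L1 1, was far above all others, and the log2 fold change of -0.17 ± 0.63 was 0.43 without it. For Cxcl9 it was -0.08 ± 0.56, and 0.39 without that library.

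The type I interferon genes lay lower as well. All 18 tested members of 20 were below 0, from -0.87 to -0.23 with a median of -0.57, which was -0.94 without combination 1, -0.18 without anti-PD-L1 1 and -0.92 without anti-PD-L1 3. Irf9, a part of the factor that type I interferon activates, had 26.8, 20.2, 13.5 and 17.7 FPKM in combination and 37.2, 27.5, 21.7 and 30.3 FPKM in anti-PD-L1 tumours. Only combination 1 reached above the lowest anti-PD-L1 library, and the log2 fold change was -0.57 ± 0.22. Bst2, which tethers budding virus to the cell, had -0.76 ± 0.33, and these were the 2 genes of the list with an unadjusted p under 0.05 in limma, against 1.69% of all tested genes on the lower side. Oas3 and Stat2 had -0.81 ± 0.45 and -0.52 ± 0.30, and -0.48 and -0.25 without anti-PD-L1 1.

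MHC class I genes were lower on average in combination libraries for all 10 members tested. The log2 fold changes ranged from -0.70 to -0.19 with a median of -0.41, and between -0.55 and -0.31 with 1 library left out. H2-T22, a class I gene of the non-classical kind, had 83.3, 92.8, 61.8 and 83.96 FPKM in combination tumours and 129, 99.6, 101 and 124 FPKM in anti-PD-L1 tumours. It was the only one of the 10 whose groups did not overlap, against 0.843% of all tested genes on the lower side. Its log2 fold change was -0.50 ± 0.16. H2-T10 had -0.46 ± 0.15, and reads of both genes are hard to assign among nearly identical copies, so the values are uncertain. H2-K1, a classical heavy chain, had 963, 1385, 1099 and 1088 FPKM in combination and 1443, 1218, 1373 and 1591 FPKM in anti-PD-L1 tumours. Combination 2 lay among the anti-PD-L1 libraries, and the log2 fold change was -0.32 ± 0.17. B2m, the light chain of class I, had -0.36 ± 0.18.

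The genes that cut and load peptides were below 0 for 11 of 12, with a median of -0.19, which was -0.08 without anti-PD-L1 1. Psmb9, an immunoproteasome subunit (chromosome 17, 34182030 to 34187330), had 52.1, 46, 32.7 and 47.4 FPKM in combination tumours, against 84.8, 52.8, 53.4 and 61.3 FPKM in anti-PD-L1 tumours. The groups did not overlap, with combination 1 just below anti-PD-L1 2, and the log2 fold change was -0.49 ± 0.21. Tap1, a chain of the peptide transporter in the membrane of the endoplasmic reticulum, had 51.4, 46.9, 36.3 and 44.1 FPKM in combination and 79.99, 52.03, 57.2 and 78.3 FPKM in anti-PD-L1 tumours, again with no overlap and with a log2 fold change of -0.56 ± 0.20. Against 0.843% of all tested genes, these were 2 of 12 with the combination wholly lower. Nlrc5, the activator of class I genes, and Calr, a chaperone of loading, had -0.46 ± 0.20 and -0.19 ± 0.08.

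Set beside the other groups, the MHC class I mean of log2(FPKM + 1) was 5.87 ± 0.09 in combination, 6.27 ± 0.29 in anti-PD-L1, 5.22 ± 0.21 in exercise and 5.40 ± 0.33 in control tumours. For the interferon gamma response it was 4.36 ± 0.68 in combination, 4.98 ± 0.70 in anti-PD-L1, 3.40 ± 0.71 in exercise and 3.23 ± 0.38 in control tumours. Within the combination group, libraries 1 and 4 had the highest means of the interferon gamma list, at 5.07 and 4.80, and libraries 2 and 3 had 3.92 and 3.65.

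**Figure D4:**
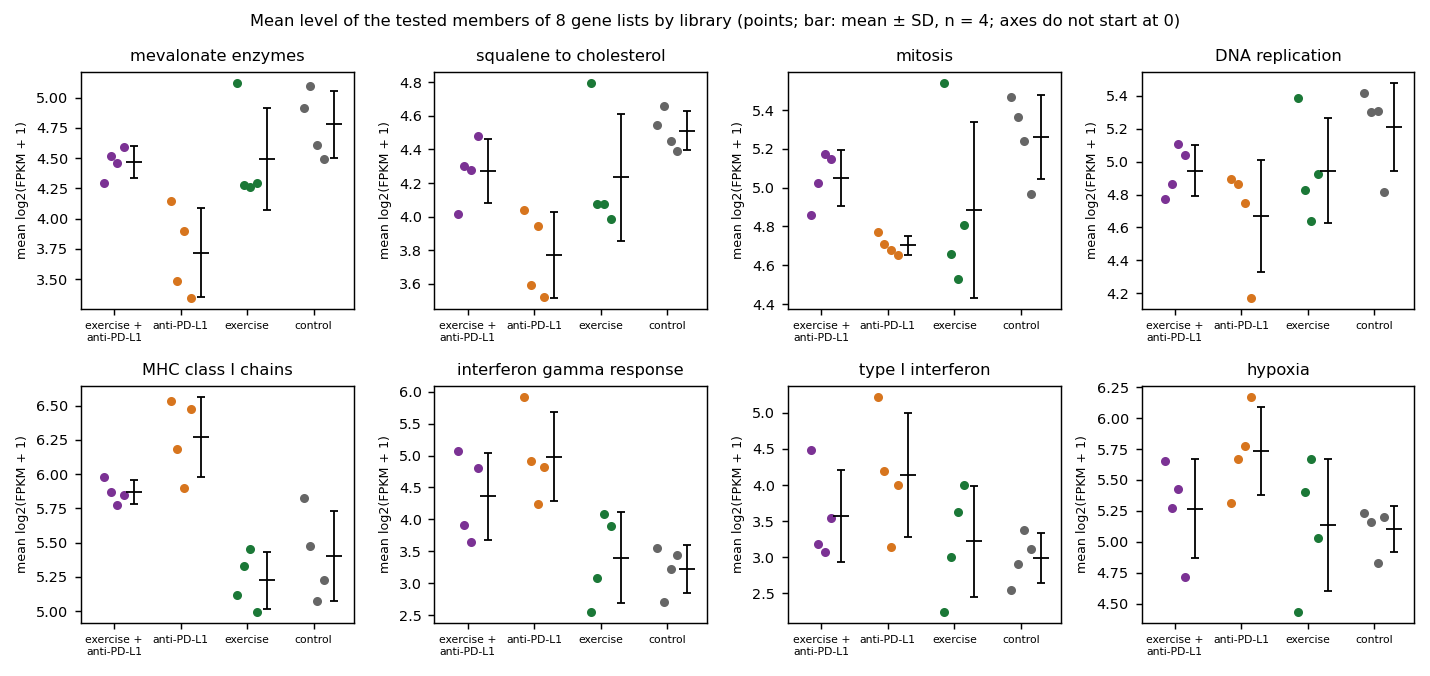
Mean log2(FPKM + 1) of the tested members of 8 gene lists (vertical axes, which do not start at 0) in each library of the combination, anti-PD-L1, exercise and control groups, with 1 point per library and a bar at the mean ± SD of the group (n = 4). The mevalonate and mitosis means of the combination libraries all lie above those of the anti-PD-L1 libraries, whereas for the interferon gamma response anti-PD-L1 1, at 5.92, is the highest point.

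Transcripts of lymphocytes were low or scattered. In bulk tissue, fewer cells of a type and less RNA per cell cannot be told apart. Cd8a, the coreceptor of cytotoxic T cells, had 1.06, 0.87, 0.77 and 1.31 FPKM in combination and 2.23, 0.57, 0.55 and 0.74 FPKM in anti-PD-L1 tumours, too low to be tested. Its highest library was anti-PD-L1 1. Ifng, the gene of interferon gamma, had 0.50, 0.25, 0.21 and 0.39 FPKM in combination and 1.28, 0.21, 0.33 and 0.17 FPKM in anti-PD-L1 tumours and was not tested either, and anti-PD-L1 1 was again the highest. Of 14 T cell markers 3 were tested, with log2 fold changes from -0.12 to -0.01. The summed FPKM of the 13 with an entry was 14.5 to 30.6 in combination and 15.7 to 35.2 in anti-PD-L1 tumours, so the groups overlapped.

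Genes of the killing machinery were below 0 for 9 of 10 tested, with a median of -0.62 and no gene under an unadjusted p of 0.05 in limma. Gzmb, the granzyme that starts death in the target cell (chromosome 14, 56258836 to 56262334), had 13.3, 11.1, 2.84 and 10.1 FPKM in combination and 16.8, 9.02, 15.7 and 5.80 FPKM in anti-PD-L1 tumours. Combination 3 was the lowest library by far, and without it the log2 fold change of -0.36 ± 0.41 became 0.059 and the median of the list -0.08. Prf1, the pore former, had -0.71 ± 0.47, which was -0.27 without combination 3 and -0.41 without anti-PD-L1 3. Gzmd, Gzmf and Gzmg, which resemble each other in sequence and can share reads, had between 3.47 and 5.72 FPKM in combination 3 and between 38.4 and 182 FPKM in the other libraries of both groups.

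Of 13 checkpoint genes 9 were tested, 4 above 0 and 5 below, with a median of -0.17. Cd274, which encodes PD-L1 itself (chromosome 19, 29362107 to 29388095), had 10.1, 5.86, 4.64 and 6.95 FPKM in combination tumours, against 15.5, 10.7, 7.16 and 13.6 FPKM in anti-PD-L1 tumours. Only combination 1 lay above the lowest anti-PD-L1 library, and the log2 fold change was -0.69 ± 0.30 with an unadjusted p of 0.0352 in limma. The antibody binds the protein, so the transcript does not check the treatment. Havcr2, which encodes TIM-3, had -0.38 ± 0.18, and Lag3 and Lgals9 had -0.28 ± 0.36 and -0.27 ± 0.25. Lag3 had -0.030 without anti-PD-L1 1, and Lgals9 had -0.031 without combination 3. The median of the checkpoint genes was -0.00068 without combination 2, -0.03 without combination 3, -0.08 without combination 4, -0.03 without anti-PD-L1 1, -0.25 without anti-PD-L1 2, -0.27 without anti-PD-L1 3 and -0.08 without anti-PD-L1 4, and none of those values was farther from 0 than 0.27.

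Among the 10 genes with the smallest p on the lower side were genes of inflammation and of blood vessels. Il1rn, the antagonist of the interleukin 1 receptor (chromosome 2, 24336860 to 24351491), had 11.1, 9.86, 6.68 and 5.05 FPKM in combination tumours, against 16.8, 20.8, 14.3 and 25.9 FPKM in anti-PD-L1 tumours. The groups lay clearly apart, and the log2 fold change was -1.18 ± 0.31 with an unadjusted p of 0.00192 in limma. Mmp8, the collagenase of neutrophils (chromosome 9, 7558429 to 7568486), had 2.32, 2.09, 1.23 and 0.48 FPKM in combination and 2.93, 6.34, 4.55 and 3.16 FPKM in anti-PD-L1 tumours. It was low in every library but did not overlap, with a log2 fold change of -1.07 ± 0.28.

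Angpt2, a ligand of the Tie2 receptor that loosens vessels (chromosome 8, 18690263 to 18741562), had 10.9, 7.99, 5.08 and 4.00 FPKM in combination tumours and 13.1, 19.2, 15.3 and 16.4 FPKM in anti-PD-L1 tumours. Thbs1, a matrix protein that restrains vessel growth (chromosome 2, 118111876 to 118127133), had 16.2, 9.57, 8.85 and 5.76 FPKM in combination and 18.2, 27.1, 20.6 and 28.8 FPKM in anti-PD-L1 tumours. In both genes all combination libraries lay below all anti-PD-L1 libraries, combination 1 was the nearest to them, and the log2 fold changes were -1.16 ± 0.32 and -1.21 ± 0.36. Angptl4, an inhibitor of lipoprotein lipase that hypoxia induces, and Adgrl4, an adhesion receptor of endothelium, had -0.83 ± 0.25 and -0.68 ± 0.20 with no overlap. The others were Rnf145, described above, Laptm4b, a protein of lysosomal membranes, Prickle1, of planar cell polarity, and Rnf31, the catalytic part of the linear ubiquitin ligase, with -0.37, -0.51 and -0.31.

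**Figure D5:**
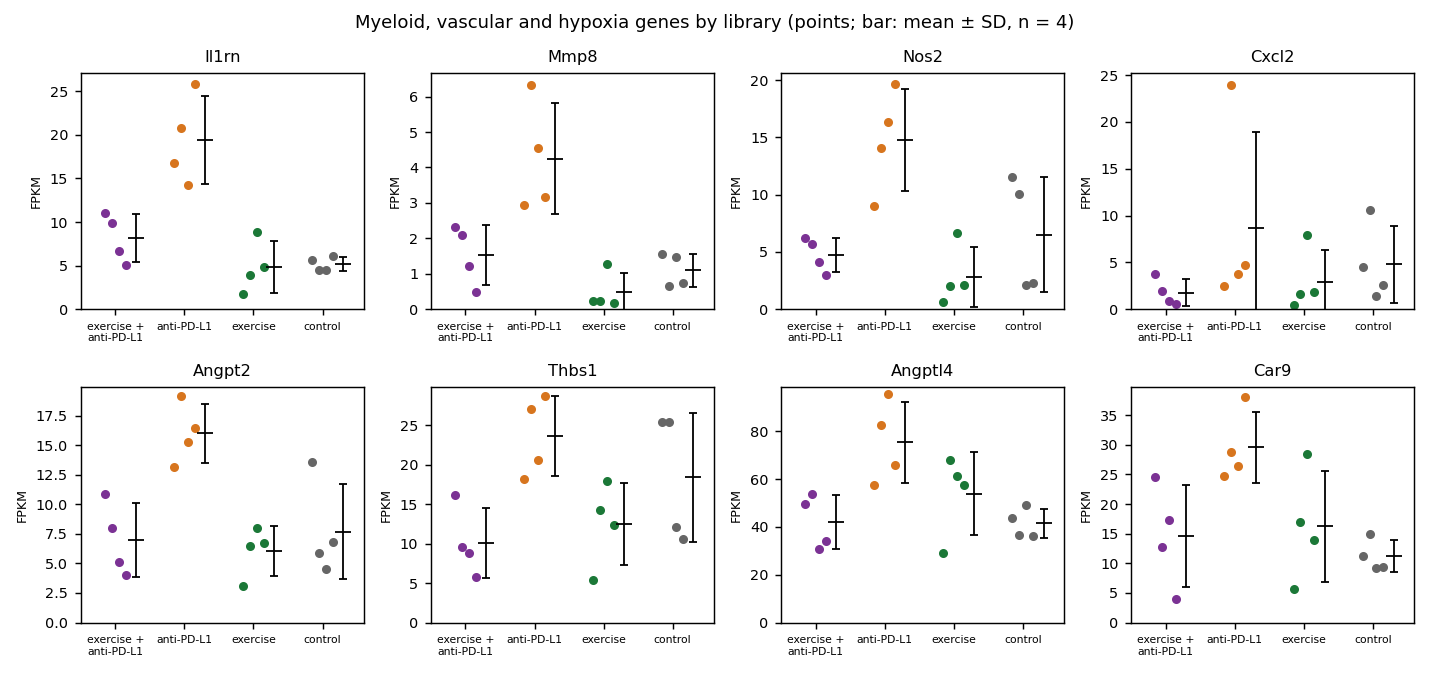
FPKM of Il1rn, Mmp8, Nos2, Cxcl2, Angpt2, Thbs1, Angptl4 and Car9 (vertical axes) in each library of the combination, anti-PD-L1, exercise and control groups, with 1 point per library and a bar at the mean ± SD of the group (n = 4). For Il1rn the 4 combination libraries lie between 5.05 and 11.1 FPKM and the 4 anti-PD-L1 libraries between 14.3 and 25.9 FPKM.

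Neutrophil genes were few and low. Of 20 markers 11 were tested, 3 of them above 0 and 8 below. Their log2 fold changes ran from -1.07 to 0.76 with a median of -0.52, which was -0.28 without anti-PD-L1 2. The median was -0.19 over all 20 without a filter on low values and -0.06 over the 2 members with a mean of at least 5 FPKM. Mmp8, Clec4e, Clec4d and Trem1 had an unadjusted p under 0.05 in limma, against 1.69% of all tested genes on the lower side, the last 3 with log2 fold changes of -0.52 ± 0.17, -0.87 ± 0.37 and -0.34 ± 0.16. The calprotectin gene S100a9 had 0.72, 1.24, 0.21 and 0.11 FPKM in combination and 0.52, 11.4, 0.31 and 2.17 FPKM in anti-PD-L1 tumours. One library, anti-PD-L1 2, stood far above the rest, and the same held for S100a8, at 9.58 FPKM. Cxcr2, the chemokine receptor of neutrophils, had 0.07 ± 0.12.

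The ligands of that receptor were also highest in anti-PD-L1 2. Of 7 genes, which include growth factors of granulocytes, 3 ligands were tested, with a median of -1.43, which was -0.68 without anti-PD-L1 2 and -0.29 over all 7 without a filter on low values. Cxcl2 had 3.73, 1.93, 0.90 and 0.58 FPKM in combination and 2.44, 23.9, 3.77 and 4.71 FPKM in anti-PD-L1 tumours, and Cxcl3 had 4.38, 2.56, 0.61 and 0.41 FPKM in combination and 4.81, 32.6, 2.83 and 2.11 FPKM in anti-PD-L1 tumours. Anti-PD-L1 2 was far above the other libraries in both, and without it the log2 fold changes of -1.45 ± 0.67 and -1.43 ± 0.75 were -0.84 and -0.68. For Cxcl1 the log2 fold change of -0.48 ± 0.60 turned to 0.070 without that library. Ccl3, chosen after its values were seen, did not overlap, at 6.79, 6.64, 3.12 and 2.02 FPKM in combination and 8.29, 32.7, 6.95 and 9.99 FPKM in anti-PD-L1 tumours.

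Macrophage genes were mixed. The 18 markers were all tested, 13 above 0 and 5 below, with a median of 0.21, which was 0.37 without combination 2, 0.04 without combination 4, 0.08 without anti-PD-L1 2 and 0.34 without anti-PD-L1 4. C1qa, a complement gene of resident macrophages, had 86.6, 50.5, 132 and 208 FPKM in combination and 91.6, 36.2, 57.97 and 97.9 FPKM in anti-PD-L1 tumours. Combination 3 and combination 4 were the highest, and the other libraries overlapped, with a log2 fold change of 0.66 ± 0.51. Ccr2, the receptor of incoming monocytes, Mrc1, a mannose receptor, and C1qc had 1.03 ± 0.53, 0.80 ± 0.52 and 0.75 ± 0.51, and Adgre1, which encodes F4/80, had 0.37 ± 0.41. Without combination 4 these were 0.63, 0.47, 0.40 and 0.11, and C1qa had 0.33. Cd14, a coreceptor for lipopolysaccharide, pointed the other way at -0.56 ± 0.22, with an unadjusted p of 0.0208 in limma.

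Genes of classically activated macrophages were below 0 for 7 of 8 tested, with a median of -0.60, which was -0.22 without anti-PD-L1 2 and -0.94 without anti-PD-L1 3. Nos2, the inducible nitric oxide synthase (chromosome 11, 78920787 to 78960226), had 6.24, 5.68, 4.15 and 2.98 FPKM in combination tumours, against 8.98, 14.1, 16.3 and 19.6 FPKM in anti-PD-L1 tumours. The groups did not overlap, and the log2 fold change was -1.44 ± 0.50 with an unadjusted p of 0.0122 in limma. Il1a, a cytokine that Il1rn opposes, had -0.75 ± 0.28, with anti-PD-L1 2 the highest at 5.23 FPKM, and -0.40 without that library. Tnf and Acod1 had -0.36 ± 0.20 and -0.62 ± 0.37. Of 9 genes of alternatively activated macrophages 7 were tested, 6 above 0, with a median of 0.75, which was 1.21 without combination 1, 0.19 without combination 3 and 0.40 without combination 4, and 0.18 over all 9 without a filter on low values. Retnla, one of these, was between 0.09 and 0.26 FPKM in 6 of the 8 libraries, and had 16.03 FPKM in combination 3 and 3.18 FPKM in combination 4.

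Genes of the hypoxia response lay lower in combination tumours for 16 of 18 members. The median log2 fold change was -0.41, and -0.21 without combination 4. Car9, a carbonic anhydrase that hypoxia induces (chromosome 4, 43507026 to 43513729), had 24.5, 12.7, 17.4 and 3.94 FPKM in combination tumours, against 24.8, 28.9, 26.5 and 38.1 FPKM in anti-PD-L1 tumours. The groups did not overlap, but combination 1 lay just below anti-PD-L1 1 and combination 4 far below the rest. The log2 fold change was -1.18 ± 0.46, with an unadjusted p of 0.0221 in limma. Without combination 4 it was -0.70. Egln3, an oxygen sensor, Ndrg1, a stress protein, and P4ha1, a collagen hydroxylase, had -0.92 ± 0.43, -0.72 ± 0.33 and -0.51 ± 0.23, and completed the 4 of 18 with an unadjusted p under 0.05 in limma, against 1.69% of all tested genes on the lower side.

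Vegfa, the main growth factor of vessels, had 162, 103, 147 and 105 FPKM in combination and 120.4, 185, 149 and 202 FPKM in anti-PD-L1 tumours, with overlap and a log2 fold change of -0.34 ± 0.26. Glycolysis was below 0 for 15 of 18 genes, with a median of -0.23, which was -0.08 without combination 4, -0.12 without anti-PD-L1 3 and -0.15 without anti-PD-L1 4. Pfkfb3, which makes an activator of glycolysis, was the only one whose groups did not overlap, against 0.843% of all tested genes on the lower side. It had 3.72, 3.86, 4.38 and 3.73 FPKM in combination and 5.31, 5.79, 5.61 and 6.48 FPKM in anti-PD-L1 tumours. Pfkp, Hk1 and Pgam1 had -0.33 ± 0.18, -0.21 ± 0.13 and -0.25 ± 0.16. Slc2a1, the glucose transporter, had 129, 117, 109 and 41.8 FPKM in combination and 83.7, 129, 142 and 223 FPKM in anti-PD-L1 tumours, with combination 4 the lowest and anti-PD-L1 4 the highest. Oxidative phosphorylation stood on the other side, with 21 of 22 genes above 0 and a median of 0.13. Ndufb8, of complex I, did not overlap and had 0.25 ± 0.12, and Ndufv1 and Ndufa4 had 0.15 ± 0.07 and 0.45 ± 0.22.

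Vascular signals with a log2 fold change of -1 or lower were examined after their values were seen. Apln, a peptide of growing vessels, had 19.1, 13.3, 10.2 and 7.54 FPKM in combination tumours and 24.6, 27.8, 23.1 and 27.8 FPKM in anti-PD-L1 tumours. Esm1, a product of endothelial tip cells, had 7.70, 6.66, 8.02 and 5.41 FPKM in combination and 9.50, 17.6, 22.4 and 14.2 FPKM in anti-PD-L1 tumours. Pgf, a growth factor related to VEGF, and Cxcl12, a chemokine of stroma, had log2 fold changes of -1.16 ± 0.45 and -1.13 ± 0.69. Cxcl12 had 1.74, 1.44, 1.76 and 1.36 FPKM in combination and 3.37, 4.38, 4.22 and 7.08 FPKM in anti-PD-L1 tumours. Its standard error also takes in the control libraries, which had 9.06, 43.29, 1.02 and 1.53 FPKM. For Apln, Esm1, Pgf and Cxcl12, as for Angpt2 and Thbs1, all combination libraries lay below all anti-PD-L1 libraries, against 0.843% of all tested genes. The same held for Il1rn, Mmp8, Nos2, Car9 and Ccl3, which were not chosen as vascular signals. A cut at -1 favours genes without overlap, so this is no result about vascular genes as a set.

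The endothelial and pericyte markers were mixed. Of 14 tested, 6 were above 0 and 8 below, with a median of -0.07, which was -0.13 without combination 1, 0.06 without combination 2, -0.17 without combination 4, 0.06 without anti-PD-L1 3 and -0.15 without anti-PD-L1 4. Pecam1, the adhesion molecule of endothelium, had 10.7, 6.35, 8.33 and 9.91 FPKM in combination and 9.46, 13.6, 14.1 and 7.95 FPKM in anti-PD-L1 tumours, and -0.31 ± 0.31 as its log2 fold change. Robo4, with -0.49 ± 0.27, was the 1 marker whose groups did not overlap, against 0.843% of all tested genes on the lower side. Vwf, Cdh5 and Cldn5 had -0.50 ± 0.24, -0.34 ± 0.30 and 0.22 ± 0.18. The summed FPKM of the 15 markers was 83.6 to 116 in combination and 90.5 to 145 in anti-PD-L1 tumours. Their part in the values of Angpt2, Apln and Esm1 was not tested.

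Blood in the tissue differed between single libraries. Hba-a1, an alpha globin gene, had 120.5, 115, 45.3 and 29.1 FPKM in combination tumours and 59.1, 29.6, 178 and 1562 FPKM in anti-PD-L1 tumours, and Hbb-bs, a beta globin gene, had 1244 FPKM in anti-PD-L1 4. Reads can be split between the nearly identical globin copies. Of 10 red cell genes 6 were tested, 5 below 0, with a median of -1.05, which was -1.88 without anti-PD-L1 2 and -0.06 without anti-PD-L1 4. Anti-PD-L1 4 was also, of the 8 libraries, the one with the highest Car9, Slc2a1, Ndrg1 and Egln3 and the lowest mean of DNA replication. The part of the blood content in those values was not tested.

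The glucocorticoid receptor and its targets lay below 0 for 11 of 11 tested, with a median of -0.41, which was -0.27 without anti-PD-L1 4. Sgk1, a kinase induced by the hormone, had 29.3, 52.3, 32.1 and 30.2 FPKM in combination and 38.8, 43.6, 62.3 and 61.3 FPKM in anti-PD-L1 tumours. Combination 2 lay among the anti-PD-L1 libraries, and the log2 fold change was -0.52 ± 0.19. Klf9, Dusp1 and Errfi1 had -0.41 ± 0.19, -0.76 ± 0.38 and -0.46 ± 0.23. Sgk1 and Klf9 were the 2 with an unadjusted p under 0.05 in limma, against 1.69% of all tested genes on the lower side.

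Whether exercise went with another difference under the antibody than without it was asked as the combination minus anti-PD-L1, less the exercise minus control difference. With limma and Benjamini-Hochberg adjustment 0 of 11868 genes (0%) passed, with a smallest adjusted p of 0.364, and 1554 (13.1%) had an unadjusted p under 0.05. Of the mevalonate genes 7 of 8 had such a p, of the later sterol genes 8 of 12, of the mitotic genes 16 of 25 and of the replication genes 7 of 23. The median of this difference on the log2 scale was 1.05, 0.84, 0.68 and 0.51 for the 4 lists. Fatty acid synthesis had 7 of 13 such genes with a median of 0.34, and oxidative phosphorylation 6 of 22 with a median of 0.17. The genes of the killing machinery lay on the other side, with 5 of 10 and a median of -1.64, the lowest of all 48 lists. Gzmd, Gzmf and Gzmg, which can share reads, were among these 5 and were low in combination 3. Without that library the list median of combination over anti-PD-L1 was -0.08, against -0.62 with it. The mean of log2(FPKM + 1) over the list was 3.64 ± 1.07 in combination and 4.26 ± 0.57 in anti-PD-L1 tumours. It was 3.17 ± 0.37 in exercise and 2.22 ± 0.81 in control tumours (SD). The part of combination 3 in the -1.64 was not tested. The remaining described lists had at most 3 genes each with an unadjusted p under 0.05 in limma. The combination minus anti-PD-L1, less the exercise minus control difference, was 1.39 ± 0.38 for Hmgcs1 and 1.53 ± 0.41 for Mki67. Combination minus anti-PD-L1 alone was 0.95 for Hmgcs1 and 0.63 for Mki67. Hmgcs1 had 88.96, 32.72, 38.61 and 37.78 FPKM in exercise and 60.76, 74.88, 54.63 and 59.29 FPKM in control tumours. Mki67 had 63.85, 18.44, 17.35 and 31.05 FPKM in exercise and 64.67, 57.54, 51.89 and 42.84 FPKM in control tumours. Exercise 1 stood apart within its group, with a mean of log2(FPKM + 1) over the mevalonate genes of 5.12, where the other exercise libraries had between 4.26 and 4.29.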

How the data were processed

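RNA was measured in 16 tumour libraries, 4 in each of 4 groups taken from the sample titles. Trizol was used to extract total RNA, per the labels. The authors deposited FPKM with 2 decimals for 18480 entries per library. The submitters' processing notes list HISAT, Bowtie2 and GRCm38.p6, without versions or roles. The library kit and the FPKM program are not given there. PD-1 stands in the series title, but the sample titles say anti-PD-L1 and were followed. RefSeq symbols of GRCm38.p6 matched 17960 entries, and 18259 with synonyms.

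FPKM hold no counts. Of 6047 low values, 37.8% were within 0.15 of a whole multiple of their gene's smallest value above 0 over the libraries. The depth of each library is unknown and may differ, so this check cannot decide whether whole reads could be recovered. No counting interval is given.

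Values were taken as log2(FPKM + 1), and a gene was tested where 4 or more libraries reached 1 FPKM. One limma fit (limma 3.58.1 in R 4.3.3, trend and robust) over all 16 libraries, with group as the single term, gave the contrasts, with Benjamini-Hochberg adjustment over all tested genes at 0.05. Of the designs written for counts and for normalized values, the second applied. Named genes were those with the 10 smallest p-values in each direction, a panel, and the 4 members of smallest p in each of 22 described lists. The enzymes of the mevalonate and cholesterol lists were named as well. Some named genes are not reported here. The 48 lists and the genes were chosen with earlier results of these data known, so no list was tested. In simulated data on the 11868 genes for combination against anti-PD-L1, limma recovered 87.5% of genes given a log2 change of 1 (6.91% false calls) and 96.5% of genes given one of 2 (6.76% false calls). The simulated noise was normal and drawn apart for each gene, with no library standing apart over many genes. These rates therefore need not hold for the real libraries. Replicate numbers were not used to pair the samples, as the labels state no pairing, and a check is given with the alternatives. Figures were drawn with matplotlib 3.10.9.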

Additional observations from a re-analysis of the deposited data

Results flagged for a closer look

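Within groups of 4 libraries, 14 of 310 groups of values checked had 1 library farther from the others than Dixon's 95% critical value allows. Chance flags about 5% of such groups, so the number of flags is near what chance gives.

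In the combination group 9 were flagged. Combination 4 was high for Pcyt2, an enzyme of phospholipid synthesis, at 41.2 FPKM where the others had 31.5 to 32.9, for Atp5g1, of the ATP synthase, at 133 FPKM where the others had 110.6 to 113, and for Ebp, the sterol isomerase, at 15.6 FPKM where the others had 13.2 to 13.4. It was low for the glucose transporter Slc2a1, at 41.8 FPKM where the others had 109 to 129. Combination 1 was high for Errfi1 at 62.2 FPKM where the others had 39.4 to 42.1, and for the endothelial gene Cldn5 at 3.14 FPKM where the others had 1.69 to 1.79. It was low for Laptm4b at 3.67 FPKM where the others had 4.55 to 4.66. Combination 2 was high for Sgk1 at 52.3 FPKM where the others had 29.3 to 32.1, and its mean log2(FPKM + 1) over the respiratory chain genes was 6.31 where the others had 6.34.

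In the anti-PD-L1 group 5 were flagged. Anti-PD-L1 1 was high for Cd8a, the coreceptor of cytotoxic T cells, at 2.23 FPKM where the others had 0.55 to 0.74, and for Lgals9 at 65.1 FPKM where the others had 39.2 to 40.6. Anti-PD-L1 2 was high for the mean log2(FPKM + 1) of the CXCR2 ligands, at 4.77 where the others had 2.03 to 2.30, and low for Mrc1 at 2.71 FPKM where the others had 4.80 to 5.14. Anti-PD-L1 4 was low for Gins1, of the replicative helicase, at 5.14 FPKM where the others had 10.2 to 10.9.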

How the results depend on the processing

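No gene passed an adjusted p of 0.05 in limma in any of the 20 fits run, which varied normalization, the filter, the pseudocount, the libraries fitted, the replicate block, weights and the library left out. The smallest adjusted p, 0.657, came from the fit of only the 8 libraries, and unadjusted counts ran from 246 to 687 with 1 library left out. The interaction gave 0 genes in each of the 19 fits that hold all 4 groups. Counting genes whose 95% interval of the difference lay within 1 of 0 gave 17789 of 18471 without a filter, a larger set of genes tested, and between 10886 and 11221 with 1 library or the pair named below left out. With a pseudocount of 0.1 or 0.01 the share of such genes fell to 89.8% or 88.8%, against 94.7% in the main fit. The replicate block left 0 genes past the threshold and 425 at an unadjusted p under 0.05 in limma. Same-numbered libraries correlated at 0.34, -0.15, 0.05 and -0.20 in their deviations from the group means. The labels do not say whether the numbers pair the samples, and these few correlations cannot settle it. With 1 library or the pair named next left out, the log2 fold change turned sign for Col1a1, of type I collagen (-0.42 to 0.39), Cxcl1 (-0.97 to 0.070), Cxcl9 (-0.46 to 0.39), Cxcl10 (-0.61 to 0.43), Gzmb (-0.63 to 0.059) and Ebp (-0.00206 to 0.095). Without combination 1 and anti-PD-L1 1 together, a fit added after seeing that they resemble each other, Cxcl9 had 0.28 and Cxcl10 0.15, and the medians of the mevalonate, mitosis and interferon gamma lists were 0.95, 0.42 and -0.55. With 1 library left out, 56 of 131 named genes moved by over 1.5 times on the log2 scale. Library weights gave medians of -0.13 for glycolysis, 0.34 for macrophage and -0.30 for red cell genes. The checkpoint median was -0.07 without a filter and -0.28 with a pseudocount of 0.1 or 0.01, and the neutrophil median -0.78 with 0.01. The endothelial median was -0.0096 without a filter and -0.13 at a mean of at least 5 FPKM. The cause was not tested. The unknown depth limits what can be said of low genes such as Cd8a and Ifng, and 4 libraries a group limit the precision.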

Other observations

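Lists not described so far had at most 2 members each with an unadjusted p under 0.05 in limma, all of them below 0. These were 2 of 10 for fatty acid oxidation and 2 of 12 for matrix metalloproteinases and inhibitors, against 1.69% of all tested genes. For the difference less that of exercise minus control, fatty acid oxidation had 6 of 10 with such a p and ATF4 targets 5 of 15, against 13.1%. The medians of that difference were -0.15 and 0.44. The stroma was mixed, with 7 of 10 collagens above 0 (median log2 fold change 0.05, between -0.04 and 0.36 with 1 library left out), 5 of 12 fibroblast markers above 0 (-0.06, between -0.21 and 0.12) and 3 of 12 matrix metalloproteinases and inhibitors above 0 (-0.22, between -0.35 and -0.15). Col1a1, of type I collagen, had 136, 25.2, 92.97 and 107 FPKM in combination and 101, 82.9, 130.3 and 45.7 FPKM in anti-PD-L1 tumours, with combination 2 the lowest library. CC chemokines were split evenly, 6 above 0 and 6 below (-0.08, between -0.26 and 0.05). MHC class II genes were above 0 for 7 of 9 (0.17, between -0.12 and 0.40), while class I was below 0 for all 10, as described.

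Markers of other cell types were mostly too low to test. Log2 fold changes ranged from 0.08 to 0.32 for 3 of 10 dendritic cell genes, -0.10 to 0.08 for 3 of 9 natural killer cell genes, -0.25 to -0.14 for 2 of 6 regulatory T cell genes, -0.63 to -0.39 for 2 of 9 adipocyte genes, -0.04 to 0.53 for 5 of 15 skeletal muscle genes, -0.10 to 0.23 for 4 of 12 keratinocyte genes and -0.51 to 0.21 for 4 of 13 colon epithelium genes. The 1 tested B cell gene had 0.16 and the 1 tested mast cell gene -0.41.

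Among stress and housekeeping lists, the median log2 fold change was -0.24 for heat shock proteins (2 of 12 above 0), -0.11 for the circadian clock (1 of 12), -0.08 for immediate early factors (4 of 14), -0.05 for the unfolded protein response (3 of 14) and -0.05 for NRF2 targets (3 of 10). It was -0.04 for ATF4 targets (7 of 15), -0.02 for fatty acid oxidation (5 of 10), 0.02 for p53 targets (6 of 10), -0.17 for sterol efflux (1 of 6) and 0.02 for ribosomal proteins (14 of 20), beside 0.02 over all genes tested. With 1 library left out, the medians lay between -0.38 and -0.05 for heat shock proteins, between -0.17 and -0.03 for the clock and between -0.27 and -0.10 for sterol efflux. The other medians crossed 0, lying between -0.15 and 0.02 for immediate early factors, -0.08 and 0.03 for the unfolded protein response, -0.14 and 0.03 for NRF2 targets, -0.23 and 0.12 for ATF4 targets, -0.08 and 0.05 for fatty acid oxidation, -0.03 and 0.05 for p53 targets and -0.07 and 0.07 for ribosomal proteins. Gm9457, a predicted gene named after its values were seen, had the highest log2 fold change of all, 3.23 ± 1.27, at 25.3, 22.3, 60.8 and 2.54 FPKM in combination and 3.26, 0, 3.02 and 0 FPKM in anti-PD-L1 tumours, with combination 4 below the highest anti-PD-L1 library.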
